A study of Mus musculus with 2 samples.

Results

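The genes described are 9 genes for the building blocks of microtubules, 3 for alpha tubulin (Tuba1a, Tuba1b and Tuba4a) and 6 for beta tubulin (Tubb2a, Tubb2b, Tubb3, Tubb4a, Tubb5 and Tubb6), chosen by symbol from the 55536 genes of the deposited gene tables. All 9 were found, and all 9 reached the detection minimum of 1 TPM, a transcript level corrected for length and library total, in both libraries, as did 14757 genes in all. The study is total RNA-seq of left cerebral cortex from female mice of the strain B6CASTF1/J, a cross of B6 and CAST, at an age of 14 days, with no treatment named. It has 2 libraries of 1 group, made from 300 ng of RNA with ERCC spike-ins. The labels number them as biological replicates 1 and 2. Their common description mentions 3 females, the tissue of replicate 2 is labelled as from a single female, and the donor entry is the same for both, so the number of mice per library is unknown and every spread below is only that between these libraries.

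A microtubule is a hollow tube of alpha and beta tubulin dimers, and neurons use it as the frame of axons and dendrites and as the track of transport. Mammals carry several genes for each subunit. The proteins differ most in their acidic tails at the end of the chain, which face outward and are the place where glutamate chains are added and where the last tyrosine of most alpha tubulins is removed and put back. Tuba1a is the main alpha tubulin of young postmitotic neurons, Tuba1b is broadly expressed, and Tuba4a stands apart because its gene codes for no final tyrosine. Among the beta genes Tubb3 is the class used as a marker of neurons, Tubb2a and Tubb2b are the related brain classes, Tubb4a is known from neurons and myelinating oligodendrocytes, Tubb5 is broadly expressed, and Tubb6 is a minor class of the adult brain.

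The last 60 bases of the annotated coding sequence are shown first because they code for the tails by which the isotypes are told apart. They were read from the GENCODE M21 transcripts, run 5′ to 3′ in the direction of the mRNA up to and including the stop codon, and carry each in-frame glutamate codon (GAA or GAG) in capitals.

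Tuba4a: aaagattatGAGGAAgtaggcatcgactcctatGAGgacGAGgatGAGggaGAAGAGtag
Tubb2a: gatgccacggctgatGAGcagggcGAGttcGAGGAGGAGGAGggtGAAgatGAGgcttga
Tubb2b: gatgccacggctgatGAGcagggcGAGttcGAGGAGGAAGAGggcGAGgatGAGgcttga
Tubb3: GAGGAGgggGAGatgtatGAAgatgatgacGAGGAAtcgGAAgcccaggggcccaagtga
Tubb4a: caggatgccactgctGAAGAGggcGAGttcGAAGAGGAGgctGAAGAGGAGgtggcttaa
Tubb5: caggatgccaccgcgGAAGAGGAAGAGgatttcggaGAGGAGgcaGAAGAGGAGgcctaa

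The windows hold 7 glutamate codons in Tuba4a. They hold 8 in Tubb2a and Tubb2b, 7 in Tubb3 and 9 in Tubb4a and Tubb5. The codon before the stop is GAG, a glutamate codon, in Tuba4a. It is AAG in Tubb3, GCT in Tubb2a, Tubb2b and Tubb4a, and GCC in Tubb5. On mm10 these windows lie in exon 4 of 4 of each gene, at chr1:75215622-75215681 on the minus strand for Tuba4a. Those of the beta genes lie at chr13:34074468-34074527 for Tubb2a, chr13:34127471-34127530 for Tubb2b, chr17:57080690-57080749 for Tubb4a and chr17:35834982-35835041 for Tubb5 on the minus strand, and at chr8:123421623-123421682 for Tubb3 on the plus strand. The tails of Tuba1a, Tuba1b and Tubb6 are not shown.

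The start of the coding sequence matters for the RNA itself, because cells lower tubulin mRNA when free dimers are in excess, through the factor TTC5, which reads the first residues as they leave the ribosome. The first 12 bases of Tuba1a and Tuba1b were the same. Those of Tuba4a differed from them only by cgc in place of cgt, and both codons stand for arginine. The agg of Tubb3 in that place stands for arginine too. The alpha genes end the stretch in tgc, for cysteine, where Tubb2a and Tubb3 end it in atc, for isoleucine.

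Tuba1a: atgcgtgagtgc
Tuba4a: atgcgcgagtgc
Tubb2a: atgcgcgagatc
Tubb3: atgagggagatc

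Coding sequences were 52.6% to 55.1% identical between alpha and beta members (18 pairs) and 80.2% to 98.3% identical within a family (18 pairs, median 83.9%). The closest pair was Tuba1a and Tuba1b, with 23 differing bases over 1356 and 98.3% identity. Next came Tubb2a and Tubb2b, with 47 differing bases over 1338 and 96.5% identity. The most distant pair within a family was Tubb5 and Tubb6 at 80.2%. The windows below are the 60-base stretches of each close pair with the most differences, in capitals, among those that start at a codon and lie within an exon. They show where the reference sequences of a pair differ, and CAST alleles were not checked. Bases 640 to 699 of the coding sequence held 10 of the 23 differences of the alpha pair, in exon 4 on the minus strand (chr15:98950691-98950750 for Tuba1a, chr15:98932239-98932298 for Tuba1b).

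Tuba1a: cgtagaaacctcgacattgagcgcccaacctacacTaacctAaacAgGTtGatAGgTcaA
Tuba1b: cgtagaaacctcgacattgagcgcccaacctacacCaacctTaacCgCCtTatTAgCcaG

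Bases 64 to 123 held 8 of the 47 differences of the beta pair, in exon 2 on the minus strand (chr13:34076592-34076651 for Tubb2a, chr13:34129289-34129348 for Tubb2b).

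Tubb2a: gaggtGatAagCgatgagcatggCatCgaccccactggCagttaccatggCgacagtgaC
Tubb2b: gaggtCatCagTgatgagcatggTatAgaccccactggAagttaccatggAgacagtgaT

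Against these stand long stretches with no difference at all. The longest run shared by Tubb2a and Tubb2b was 551 bases. Between Tuba1a and Tuba4a, a more distant pair at 84.7% identity, it was 29 bases.

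The gene tables sum to 33362704 counts in replicate 1 and 32013997 in replicate 2, after leaving out spike-ins. The authors deposited 2 quantifications. The first, a gene and a transcript table made from a transcriptome alignment, gives the main values, and the second, a transcript table made from the reads, was summed per gene here. All 8 cortical excitatory neuron markers checked were detected in both libraries, Slc17a7 at 771 and 743 TPM, and so were all 6 inhibitory neuron markers. The 5 proliferation markers summed to 30.87 and 31.03 TPM. Genes of myelinating oligodendrocytes and of the neighbouring striatum were lower in replicate 2, with values given below beside the tubulin genes. In bulk tissue, fewer cells of a type and less RNA per cell cannot be told apart.

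Tuba1a and Tubb2a stood far above the other members, and Tubb6 far below. Together the 9 genes held 3712 TPM in replicate 1 and 3812 in replicate 2. That was 0.727% and 0.744% of the TPM of protein-coding genes. The plot of TPM by gene shows a top pair, a middle group of 5 genes within a narrow range, Tubb2b below them and Tubb6 near the detection minimum.

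**Figure D1:**
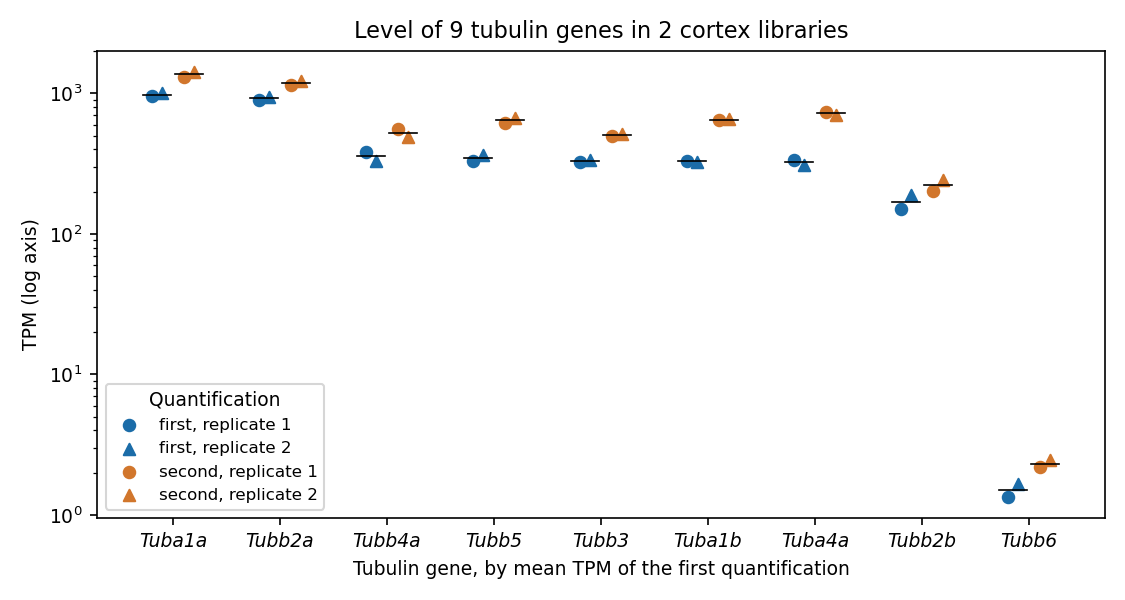
TPM (log axis) of the 9 genes in replicate 1 (circles) and replicate 2 (triangles), for the first (blue) and second (orange) quantification, with black lines at the mean of the 2 libraries. Tuba1a and Tubb2a lie between 898 and 1422 TPM, 6 genes lie between 149 and 741, and Tubb6 lies between 1.35 and 2.46.

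Among the alpha genes, Tuba1a (chr15:98949837-98953703, minus strand) was at 953 TPM in replicate 1 and 1009 in replicate 2, a mean of 981 ± 39.1 (SD, n = 2). It held rank 26 of the 12959 protein-coding genes detected. Its neighbour Tuba1b (chr15:98931425-98934565, minus strand) was at 332 and 326 TPM, 329 ± 4.50 (SD, n = 2). Tuba4a (chr1:75214228-75219865, minus strand), the gene without a final tyrosine codon, was at 336 and 311 TPM, 324 ± 17.3 (SD, n = 2). The ranges of Tuba1b and Tuba4a overlapped, so the data do not put them in an order. Of the alpha genes outside the 9, Tuba1c reached 60.8 and 67.0 TPM and Tuba8 3.68 and 3.10, while Tuba3a, Tuba3b and Tubal3 were listed at 0 in both libraries.

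Among the beta genes, Tubb2a (chr13:34074274-34078007, minus strand) led with 898 TPM in replicate 1 and 947 in replicate 2, 923 ± 34.7 (SD, n = 2), at rank 31 of the protein-coding genes. It stayed just under Tuba1a in each library, which exceeded it 1.06-fold in both. Tubb4a (chr17:57080066-57087782, minus strand) was at 384 and 329 TPM, 356 ± 39.3 (SD, n = 2). The broadly expressed Tubb5 (chr17:35833921-35838306, minus strand) was at 331 and 365 TPM, 348 ± 23.7 (SD, n = 2). The neuronal class Tubb3 (chr8:123411424-123422015, plus strand) was at 326 and 335 TPM, 331 ± 6.87 (SD, n = 2). These 3 genes overlapped in range, and their order turned between libraries, Tubb4a being the highest of them in replicate 1 and Tubb5 in replicate 2.

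Tubb2b (chr13:34126748-34130466, minus strand) was at 149 and 188 TPM, 169 ± 27.3 (SD, n = 2), below every gene of the middle group in both libraries. Its close relative Tubb2a was 6.01-fold above it in replicate 1 and 5.04-fold in replicate 2. Tubb6 (chr18:67390717-67402749, plus strand) was at 1.35 and 1.65 TPM, 1.5 ± 0.21 (SD, n = 2), on 48 and 54 counts. It held rank 12600 of the protein-coding genes detected. Tubb4b, a beta gene outside the 9, was at 243 and 226 TPM, above Tubb2b, and Tubb1 was at 0 and 0.04 TPM.

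Within alpha tubulin, summed over 8 genes, Tuba1a held 56.6% in replicate 1 and 58.8% in replicate 2, 57.7% ± 1.58 (SD, n = 2). Tuba1b held 19.3% ± 0.506 and Tuba4a 19.0% ± 1.26. Within beta tubulin, also summed over 8 genes, Tubb2a held 38.5% and 39.6%, 39.1% ± 0.780 (SD, n = 2). Beta tubulin was thus spread over more genes: Tubb4a held 15.1% ± 1.93, Tubb5 14.7% ± 0.743, Tubb3 14.0% ± 0.0447, Tubb4b 9.93%, Tubb2b 7.13% ± 1.03 and Tubb6 0.0634%. The summed TPM of the alpha genes was 0.723 and 0.717 of that of the beta genes. In the second quantification it was 0.840 and 0.836. Neither sum includes pseudogenes, which are described below. Tubb4a held 16.5% of beta tubulin in replicate 1 and 13.7% in replicate 2, and Tubb2b 6.40% and 7.86%, values that come from single libraries and have no test of their own.

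**Figure D2:**
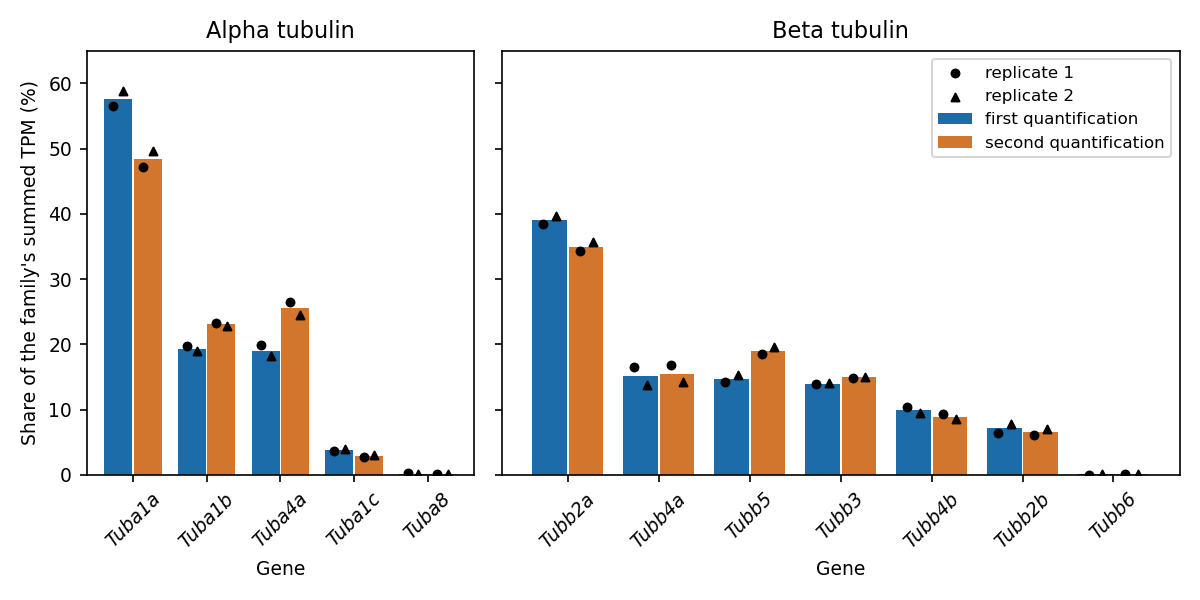
Share (%) of each gene in the summed TPM of the 8 alpha (left) and 8 beta (right) tubulin genes, as the mean of 2 libraries (bars) with replicate 1 (circles) and replicate 2 (triangles), for the first (blue) and second (orange) quantification. Genes with a mean share of 0.05% or less are left out. Tuba1a is the largest alpha and Tubb2a the largest beta share in both quantifications, and Tuba4a and Tubb5 gain most in the second.

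The shares depend on the quantification. In the second, Tuba1a held 48.4% of alpha tubulin, Tuba1b 23.1% and Tuba4a 25.5%, while Tubb2a held 35.0% and Tubb5 19.0% of beta tubulin. Over transcripts annotated as protein-coding alone, Tubb5 held 14.2% in the first quantification and 12.8% in the second, and Tubb2a 39.4% and 38.2%. The higher share of Tubb5 in the second was thus not seen when only these transcripts were summed. Tuba1a and Tubb2a kept ranks 1 and 2 among the 9 genes and Tubb2b and Tubb6 ranks 8 and 9. The middle group was reordered, with 5 genes at another rank. Tuba4a, whose range overlapped those of the group in the first quantification, led it in the second at 741 and 703 TPM, above Tuba1b at 651 and 654.

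The levels themselves were higher in the second quantification for all 9 genes. Over the 14746 genes compared, the median gene was 1.48-fold higher there, a log2 difference of 0.56 on the scale of TPM + 0.1. Protein-coding genes held 51.0% and 51.2% of all TPM in the first quantification and 80.1% and 81.2% in the second. Against that shift, 978 genes (6.63%) were 2-fold or more higher in the second quantification in both libraries and 501 (3.40%) were 2-fold or more lower. Tuba4a was the only one of the 9 past that fold, 2.21-fold higher in replicate 1 and 2.26-fold in replicate 2, a difference larger than that of 95.5% of genes. Tuba1b was 1.96-fold and 2.01-fold higher and Tubb5 1.85-fold and 1.84-fold. Tubb2a moved least on average, 1.27-fold and 1.29-fold, below the median gene. When both quantifications were rescaled over protein-coding genes, none of the 9 was 2-fold apart and Tuba4a kept a log2 difference of 0.50.

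In counts, which carry no length correction, the picture was another. Tuba4a had 13210 and 11647 counts in the first quantification and 14069 and 12500 in the second, a ratio of 1.07 in both libraries. Tubb5 had 17441 and 18526 against 17553 and 18511. Tuba1b, by contrast, had 11649 and 10927 counts in the first and 15747 and 14986 in the second, a log2 difference of 0.45 that exceeded that of 97.6% of genes. Tubb2a and Tubb2b went the other way, by -0.21 and -0.28 in log2. The remaining 4 genes lay between -0.05 and 0.07, where the median gene was at 0.08. The 2 groups of genes are taken in turn.

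For Tuba4a and Tubb5 the second quantification gave more reads to shorter transcripts, while most reads stayed on the long ones. Tuba4a has 8 annotated transcripts. The 2083-base Tuba4a-201 held 268 and 245 TPM of the gene in the first quantification, 79.3% on average, and 287 and 270 TPM in the second, 38.5%. The 1205-base Tuba4a-206, with 2 exons, was at 51.3 and 52.2 TPM in the first and 230 and 218 in the second. Tuba4a-203, with 782 bases and 3 exons, was at 1.74 and 1.25 TPM in the first and 213 and 205 in the second. In counts, Tuba4a-201 had 11399 and 10007 in the first and 8668 and 7716 in the second, Tuba4a-206 had 1217 and 1186 and then 3454 and 3088, and Tuba4a-203 had 25.5 and 17.5 and then 1633 and 1472. The long transcript thus had fewer counts in the second quantification, and its TPM rose by less than the 1.48-fold of the median gene, while both short ones rose in counts and in TPM. Neither short transcript has both an annotated start and a stop codon, and Tuba4a-201 itself lacks an annotated start codon, so that the coding sequence used above is that of Tuba4a-202, which held 2.14% of the TPM of the gene.

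**Figure D3:**
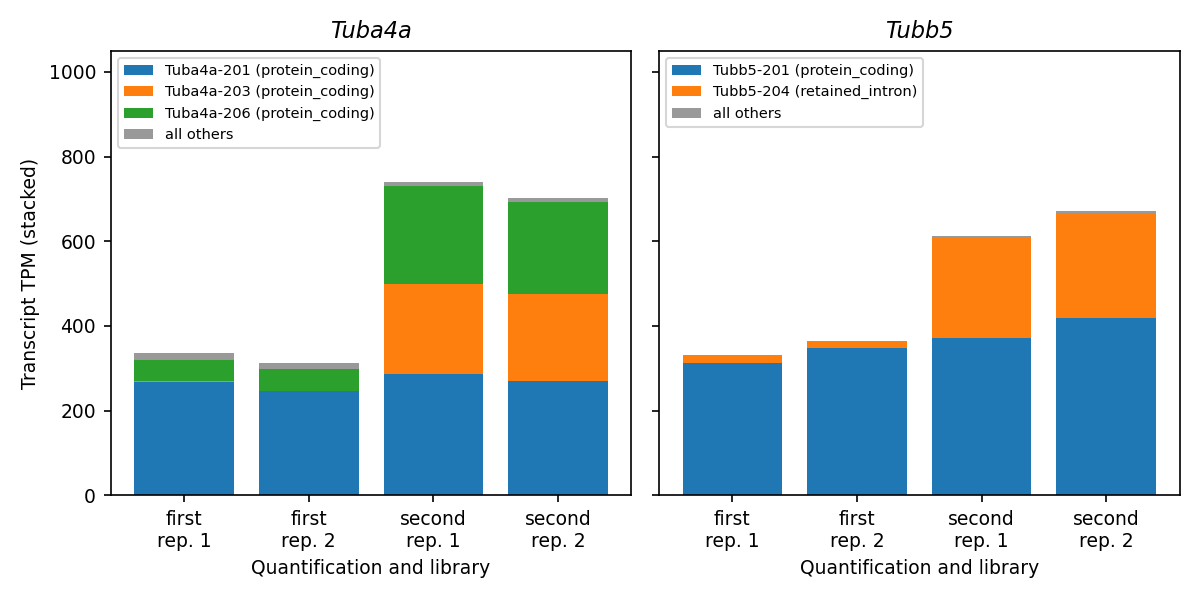
Transcript TPM of Tuba4a (left) and Tubb5 (right), stacked, in each library and quantification. The first quantification places most TPM on Tuba4a-201 and Tubb5-201, and the second places between 205 and 249 TPM on each of Tuba4a-203, Tuba4a-206 and Tubb5-204.

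Tubb5 showed the same with a retained intron transcript, an RNA that keeps an intron and has no annotated coding sequence. Tubb5-204, with 979 bases, was at 15.8 and 13.7 TPM in the first quantification and 238 and 249 in the second. The full-length Tubb5-201, with 2649 bases, was at 313 and 348 TPM and then at 372 and 419. In counts it had 17101 and 18238 and then 14892 and 15891, against 298 and 248 and then 2632 and 2594 for Tubb5-204. Tubb2b-202, a processed transcript of 430 bases, went from 2.87 and 5.85 TPM to 32.4 and 31.2, and Tubb3-202, with 776 bases, from 0 in both libraries to 17.2 and 20.9. Tuba1a, Tubb2a and Tubb4a have 1 annotated transcript each and no such choice. The tables also take different fragment lengths as given: length exceeded effective length by 99 bases in the first and by 341 and 347 in the second, which raises the TPM of short transcripts per count. How far this sets the gene levels was not tested.

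Tuba1a, Tuba1b, Tubb2a and Tubb2b have near-identical sequence elsewhere in the transcriptome. What part this has in their count differences between the quantifications was not tested. Of the 100-base stretches in the annotated transcripts of Tuba1a, 65.1% also occurred in transcripts of other genes, in the same orientation, and 11 other genes held at least 1 of them. For Tuba1b it was 62.1% with 11 genes, for Tubb2a 36.9% and for Tubb2b 26.0% with 2 genes each. The other 5 members shared none. The genes holding 10% or more of the stretches of Tuba1a were Tuba1c, Gm17383, Gm49450, Tuba1b, Gm3226, Gm3756, Gm6682 and Gm14150, and for Tuba1b Gm5620 came in addition. Gm49450 is an annotated gene that spans both loci on the same strand and had 0 counts in both libraries, and the other Gm genes are processed pseudogenes, inserted copies of a spliced RNA. Tubb2a and Tubb2b each passed 10% only with the other.

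The count that separates the quantifications most is that of the processed pseudogene Gm14150 on chromosome 2, which holds 28.4% of the 100-base stretches of Tuba1b and 10.2% of those of Tuba1a. It had 6568 and 6550 counts in the first quantification and 56.6 and 58.6 in the second. Tuba1b and Gm14150 together had 18217 and 17477 counts in the first and 15804 and 15045 in the second. Gm3226 had 3372 and 3589 counts and then 2810 and 2841, and Gm6682 936 and 969 and then 459 and 446. Over the 12 genes that share 100-base stretches with Tuba1a or Tuba1b, these genes included, the counts were 59972 and 60075 in the first and 54788 and 54921 in the second. The 8 pseudogenes among them held 18.4% and 18.7% of those counts in the first and 6.32% and 6.40% in the second. Whether these RNAs are made from the pseudogenes or from the tubulin genes cannot be told apart from these tables, so the level of Tuba1b is uncertain between the 2 quantifications.

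**Figure D4:**
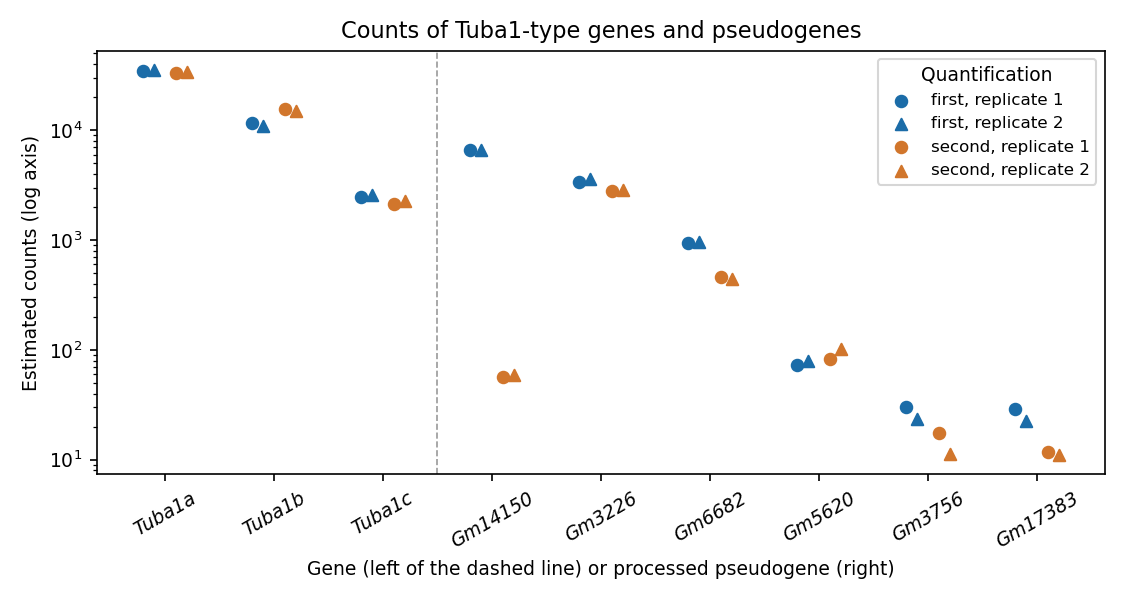
Estimated counts (log axis) of Tuba1a, Tuba1b and Tuba1c (left of the dashed line) and of the 6 processed pseudogenes that hold 10% or more of the 100-base stretches of Tuba1b (right), by library and quantification. Gm14150 falls from 6568 and 6550 counts in the first quantification to 56.6 and 58.6 in the second, and Tuba1b is higher in the second.

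Tubb2a, Tubb2b and the pseudogene Tubb2a-ps2 together had 35746 and 37294 counts in the first quantification and 30929 and 32206 in the second, 0.865 and 0.864 of the first. The pseudogene took 45.1 and 39.9 of these in the first and 290 and 324 in the second. So the lower counts of both genes in the second quantification were not balanced by counts on their copy. The authors' first tables also hold a posterior SD of each count, which describes the doubt in sharing out reads. In replicate 1 it was 0.255% of the count for Tuba1a, 0.939% for Tuba1b, 0.171% for Tubb2a and 0.759% for Tubb2b, and 0 for the other 5 members. All 4 values are far below the difference between the quantifications.

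The 2 libraries were then compared by an exact binomial test, two-sided, of the counts, scaled by TMM, with Benjamini-Hochberg adjustment over the 18887 genes with 10 or more counts in at least 1 library. The test knows only counting error and so compares these libraries, not animals. It called 3841 genes (20.3%), 1605 (8.50%) higher and 2236 (11.8%) lower in replicate 2. Scaled to library totals, 2733 genes were higher and 1145 lower, and scaled to spike-ins 2570 and 1229. Of the 9 tubulin genes it called 2 higher and 3 lower, and 4 did not pass. Among the 1277 genes with 5000 or more counts in replicate 1, to which 8 of the 9 belong, 66.6% were called, so 5 called genes are near the background for this depth. With edgeR's exact test and an assumed dispersion of 0.01, a spread between samples that these libraries cannot give, 182 genes (0.964%) were called and 0 of the 9, with 0 of the 9 at an unadjusted p under 0.05.

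**Figure D5:**
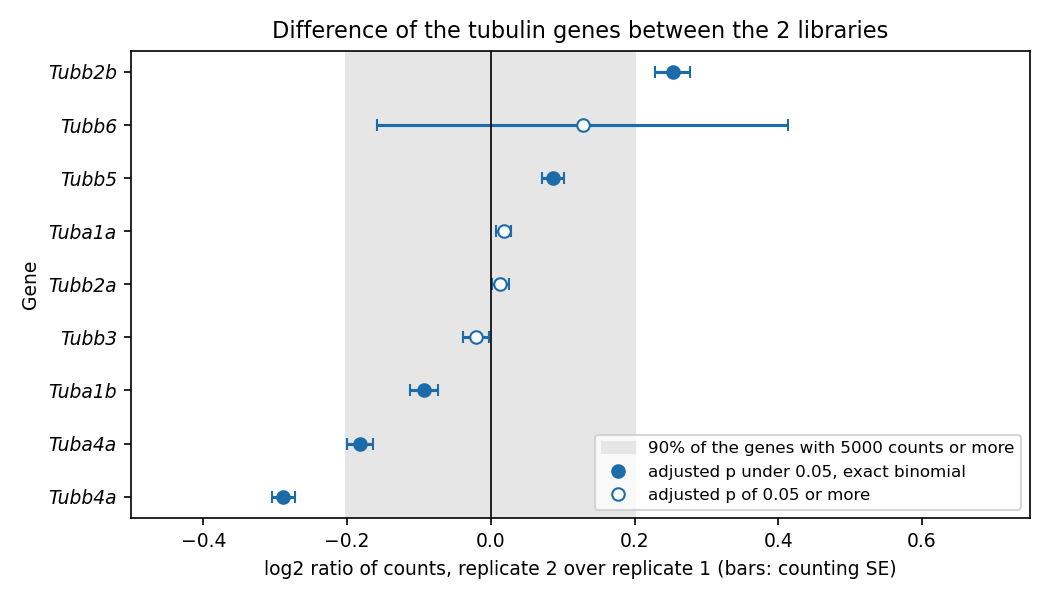
The log2 ratio of counts, replicate 2 over replicate 1, of each gene with its counting SE (bars), filled where the exact binomial test gave an adjusted p under 0.05. The grey band holds 90% of the genes with 5000 or more counts (log2 ratios of up to 0.201 in size), and Tubb2b and Tubb4a lie outside it.

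Tubb4a had 17556 counts in replicate 1 and 14378 in replicate 2. It was lower in replicate 2, with a log2 ratio of -0.29 ± 0.02 (counting SE; adjusted p = 9.93e-69, exact binomial), a larger difference than in 97.4% of the 1277 deeply counted genes. Tuba4a was lower by -0.18 ± 0.02 (adjusted p = 1.78e-21, exact binomial), past 86.6% of those genes. Tubb2b had 6572 and 7840 counts and was higher in replicate 2, with a log2 ratio of 0.25 ± 0.02 (adjusted p = 4.89e-24, exact binomial), past 95.8% of them. Tubb5 was higher by 0.09 ± 0.02 (adjusted p = 3.13e-07, exact binomial) and Tuba1b lower by -0.09 ± 0.02 (adjusted p = 2.05e-05, exact binomial). These last differences are about the median size for deeply counted genes, 0.09. Tuba1b lost its call when counts were scaled to the library total (adjusted p = 0.239, exact binomial) or to the spike-ins (adjusted p = 0.139, exact binomial).

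Tuba1a and Tubb2a, the most abundant members, had log2 ratios of 0.02 ± 0.01 (adjusted p = 0.268, exact binomial) and 0.01 ± 0.01 (adjusted p = 0.496, exact binomial). Both passed the test as higher when counts were scaled to the library total or to the spike-ins, settings that moved the median gene by up to 0.06. Tubb3 was at -0.02 ± 0.02 (adjusted p = 0.487, exact binomial). It turned positive under those scalings and was called lower in the counts of the second quantification, at -0.05 (adjusted p = 0.035, exact binomial). Tubb6, on its few counts, was at 0.13 ± 0.29 (adjusted p = 0.811, exact binomial), and a difference of that size was not detectable at this depth. The directions of Tubb4a, Tuba4a, Tubb2b and Tubb5 and their calls held under every scaling and in the second quantification, with edgeR's assumed dispersion as the exception for the calls.

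Markers of several cell types moved between the same libraries, in lists to be read against the 20.3% of all genes called. With edgeR and the assumed dispersion, 9 of 11 myelinating oligodendrocyte genes and 4 of 6 striatum genes stayed lower, 2 of 4 choroid plexus genes and 1 of 5 fibroblast genes stayed higher, and 0 genes of the other lists were called. Of 11 genes of myelinating oligodendrocytes, 10 were lower in replicate 2 and 1 did not pass, with a median log2 ratio of -0.92 and a summed level of 1414 and 782 TPM, none of them at 0. Mobp, a protein of compact myelin, went from 203 to 106 TPM and Cnp, a myelin enzyme, from 186 to 116, and Mal, Opalin and Mog were more than 2-fold lower. The 6 genes of the striatum were all lower, with a median of -0.81 and a sum of 229 and 139 TPM, none at 0, led by Ppp1r1b at 112 and 62.9 TPM and Penk at 52.8 and 36.5, with Drd2 at 7.04 and 3.06. Tubb4a, which is known from oligodendrocytes, and Tuba4a moved in the same direction as these lists by smaller ratios. Tuba1b was lower as well, and so was Tubb4b, outside the 9, at -0.17 (adjusted p = 7.90e-11, exact binomial). Tubb2b and Tubb5 were higher. Cortical excitatory neuron genes, 6 of 8 lower, had a median of -0.14 and a sum of 3326 and 3104 TPM, with Nrgn at 1413 and 1277 and Camk2a at 916 and 865. Of 6 immature neuron genes, which include Tubb3, 2 were higher and 4 did not pass, with a median of 0.10 and a sum of 833 and 883 TPM, none at 0. The most abundant were Stmn2, at 462 and 490 TPM, and Tubb3. The 2 higher ones were Dcx, at 19.2 and 26.4 TPM, and Sox11, at 6.08 and 8.56 TPM. Tubb2b, which is known from young neurons, was higher too, while Tubb3 and Tuba1a, the main alpha tubulin of such neurons, were not called. Of the other lists, 4 of 5 oligodendrocyte precursor genes, 2 of 5 microglia genes and 1 of 6 inhibitory neuron genes were lower, 3 of 5 fibroblast genes and 4 of 4 choroid plexus genes were higher, and of 6 astrocyte genes 2 were higher and 3 lower. The choroid plexus genes summed to 2.29 and 6.74 TPM, with Folr1 at 0.40 and 2.69 and Clic6 at 0.32 and 0.90. None of the 5 endothelial and mural and 5 proliferation genes passed the exact binomial test, 2 and 0 of them being at an unadjusted p under 0.05. The median over all genes tested was 0.00. What part these markers have in the tubulin differences was not tested.

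Tubulin is folded by the chaperonin CCT with prefoldin and then joined to dimers by the cofactors Tbca to Tbce with Arl2. None of the 14 chaperonin and prefoldin genes and none of the 6 cofactor genes passed the exact binomial test, which called 20.3% of all genes tested. The median log2 ratios of these lists were -0.04 and -0.03. At an unadjusted p under 0.05 there were 0 and 0 of these genes, and edgeR called 0. The highest of them were Pfdn5 at 147 and 149 TPM and Cct7, a CCT subunit, at 97.5 and 99.1, and among the cofactors Tbcb at 73.8 and 70.5 and Tbca at 66.7 and 70.6. Ttc5, the factor of tubulin mRNA decay, was at 26.0 and 30.6 TPM with a log2 ratio of 0.11 ± 0.07 (adjusted p = 0.228, exact binomial).

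Of 19 genes for enzymes and partners that modify tubulin, 18 could be tested, of which 5 were higher in replicate 2, 5 were lower and 8 did not pass, with a median of -0.02, where 20.3% of all genes were called. edgeR with the assumed dispersion called 0 of the 18. The most abundant were Agtpbp1, which trims glutamate chains, at 164 and 154 TPM, and Sirt2, a deacetylase made by oligodendrocytes, at 131 and 109. Both were among the 5 lower ones, Sirt2 with the larger log2 ratio of -0.35 ± 0.03. Ttll7, a glutamylase that acts on beta tubulin, was at 74.5 and 68.6 TPM and lower too. The 5 higher ones were Atat1, at 26.4 and 33.1 TPM, Hdac6, at 22.4 and 28.4, Ttll4, Agbl5 and Agbl2, the last below 1 TPM. The enzyme pair that acts on the last alpha tyrosine was present, Ttl, which adds it back, at 37.0 and 35.6 TPM and called lower, and Vash1, which removes it, at 29.5 and 33.2 and not called. Among the 4 delta, epsilon and gamma tubulin genes, of which Tubg1 at 25.2 and 24.9 TPM and Tubg2 at 23.0 and 23.4 were the highest, only Tube1 passed, at 0.98 and 1.44 TPM, and edgeR called 0. Of 6 genes of the gamma tubulin ring, from which microtubules grow, Tubgcp6 was higher, at 11.97 and 13.06 TPM, and the other 5 did not pass. edgeR called 0 of these 6. The calls of Tube1 and Tubgcp6 are to be read against the 20.3% of all genes called.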

How the data were processed

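Total RNA-seq of 2 cortex libraries of 1 group was analysed. The authors deposited expected counts per gene and per transcript, and estimated counts in a second transcript table, all unnormalised, on mm10 with GENCODE M21, per the deposited text files. The deposited TPM values sum to the same total in every table, spike-ins included. Isoform percent values were deposited by the authors but are not printed, and transcript shares were computed from TPM. No label or header names the tools or the strand setting, so overlapping antisense genes are uncertain. Spike-in rows (120169 and 115850 counts) and numbered rows that name no gene (5 and 4.84 counts) were left out.

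Values of the second table were summed per gene. Expected counts were rounded and compared with a two-sided exact binomial test (TMM from edgeR 4.0.16, R 4.3.3, adjusted p under 0.05). DESeq2 1.42.0 gave size factors only. The test was checked on simulated data with counting error alone, the error it assumes, so the check does not cover other spread between libraries. The log2 differences between quantifications used TPM + 0.1 and genes at 1 TPM or more. Coding identity came from global alignment (Biopython 1.88). Proteins were not compared because no protein table was used here; coding sequences took their place. All 9 genes are named. The rule for lists names the 2 highest members and those with a 2-fold difference. It was followed for the lists described in detail, other marker lists are given by counts alone, 1 item is not reported here, and other names were chosen after their values were seen. Members and lists were chosen with earlier results of these data known. Binomial p-values rest on counting error alone and compare these libraries, and reads are not independent molecules.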

Additional observations from a re-analysis of the deposited data

How the results depend on the processing

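Alternatives were the second quantification, other denominators, scalings, filters and run lengths, and leaving out a library. The summed level of the 9 genes, 3762 TPM, was 5822 in the second quantification and 7356 when rescaled over protein-coding genes. The share of Tuba1a in alpha tubulin was 48.4% in the second quantification and 60.04% over members only. The share of Tubb2a in beta tubulin was 35.0% in the second quantification, 32.5% in expected counts and 43.4% over members only. The second quantification put 5 genes at another rank. With edgeR and an assumed dispersion 182 genes and 0 members were called between libraries. Tubb2a turned to -0.0026 in the second quantification, and Tubb3 to 0.039 with library totals and 0.033 with spike-ins. Total counts gave 2733 higher and 1145 lower genes and spike-ins 2570 and 1229, against 1605 and 2236. Members 2-fold apart between quantifications were 0 when rescaled and 0 in counts, and 1 to 2 when a library was left out. The percent of all genes that far apart was 4.72 when rescaled and 5.005 in counts, against 10.03. Members with shared runs were 7 at 50 bases and 9 at 31 bases, a length added after seeing the data. The cause of these changes was not tested. No paired analysis was possible because there is 1 group. With 2 libraries the spread is poorly known, and the depth of Tubb6 limits its comparison.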

Other observations

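Gm20388 is annotated on the same strand as Tubb3 over a far longer span (chr8:119910841-124345722) that contains the Tubb3 locus. It had 395 counts in replicate 1 and 104 in replicate 2, at 4.77 and 1.31 TPM. Where in that span its counts lie was not examined. It was singled out after its values were seen. On the opposite strand, Stk16 overlaps the end of Tuba4a and had 957 and 885 counts, and the antisense gene Gm41396 over Tuba1b had 8 and 5 counts.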
